A study of Mus musculus with 9 samples.

Results

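The S100 genes described here were the 10 rows of the count table whose symbols were S100a1, S100a4, S100a6, S100a8, S100a9, S100a10, S100a11, S100a13, S100a14 and S100a16, of 55276 symbols in all. They were followed in PPTR cells, a mouse intrahepatic cholangiocarcinoma (iCCA, bile duct cancer of the liver) line grown from tumor organoids, by RNA sequencing of 9 libraries. All groups carried the same engineered alleles, among them a tamoxifen-inducible Cre under the Prom1 promoter and the Rosa-ZsGreen reporter, and none received a treatment. The groups were Vcam1 ctrl (WT in the labels), Vcam1 KO1 and Vcam1 KO2, with 3 libraries each. The KO cells were made with Cas9 and a guide against exon 2 of Vcam1, an adhesion molecule of the immunoglobulin family. KO1 and KO2 were each 1 clone, so that a difference between a clone and Vcam1 ctrl cannot be told apart from a difference that the founding cell already had. The libraries came from different passages, and the p-values measure the spread between such libraries. In KO against ctrl the 6 KO libraries come from 2 clones. Its spread therefore also holds the difference between the clones, and its n counts libraries. Replicate numbers only name the libraries.

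Library totals ran from 53415907 to 125223073 counts, and a count of 3 stood for 0.0239 to 0.0554 CPM, the counts of a gene relative to its library's scaled total. Vcam1 mRNA was at 221 to 329 CPM in ctrl and at 83.0 to 128 CPM in the 6 KO libraries. The study reported that both clones had lost Vcam1 by quantitative RT-PCR and by flow cytometry. The counts here are of mRNA and do not measure the protein. The bile duct identity given for these cells held for part of its markers. Of 10 biliary and epithelial markers, Sox9 and Spp1 were among those present in all groups, and Prom1 was near 0 in all of them. Of the 9 tested, 6 fell in KO against ctrl and 1 rose, beside 21.2% lower and 21.7% higher over all genes. The 6 were Krt7, Krt8, Krt18, Krt19, Epcam and Cdh1. The keratin Krt19 was at 2129 to 2406 CPM in ctrl and at 0.016 to 0.226 CPM in the KO libraries. Epcam was at 17.4 to 27.2 CPM in ctrl and had 0 counts in 3 KO libraries. Genes near 0 in KO, Krt19 and Epcam among them, passed the filter on low counts through ctrl, and their calls are no support in themselves. Whether the KO clones and ctrl came from the same starting cells was not tested, and every difference from ctrl given here is subject to that. The KO1 replicate 3 library stood apart in its cell cycle genes, with Mki67 at 27.7 CPM against 114 to 332 CPM in the other 8 libraries.

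S100 proteins are small proteins with a pair of EF-hands, the loops that hold calcium, and they mostly work as dimers. On binding calcium they expose a surface that grips a target protein, such as an annexin, a myosin heavy chain or an enzyme, and several are also released from cells and bind receptors such as RAGE and TLR4. S100a4, also called metastasin or fibroblast-specific protein, is known for its rise in cells that take on mesenchymal traits, S100a6 and S100a11 are abundant in many epithelia, and S100a8 and S100a9 are best known from neutrophils.

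All 10 genes lie on chromosome 3 (GRCm38, GENCODE vM21). S100a1, S100a13, S100a14, S100a16, S100a4, S100a6, S100a8 and S100a9 sit in this order within 185 kb, between 90511034 and 90695721, and S100a11 and S100a10 sit further along, to 93564643. S100a4 (90603771 to 90606045) and S100a6 (90612882 to 90624181) are on the same strand, with 6.8 kb between them. S100a5 (90608523 to 90611780), which is not among the 10, lies in that gap on the same strand. RefSeq promoter windows (GRCm38.p6, from 250 bases before to 50 bases after an annotated start) matched 8 of the 10 genes, with 2 windows for S100a16. The windows of S100a4 and S100a6 are shown because these nearby genes moved in opposite directions. Those of S100a8 and S100a9 are shown because both genes were near 0 in the KO clones. Capitals mark the letters TATAAA of the promoter element of that name.
S100a4, chr3:90603520-90603819, plus strand: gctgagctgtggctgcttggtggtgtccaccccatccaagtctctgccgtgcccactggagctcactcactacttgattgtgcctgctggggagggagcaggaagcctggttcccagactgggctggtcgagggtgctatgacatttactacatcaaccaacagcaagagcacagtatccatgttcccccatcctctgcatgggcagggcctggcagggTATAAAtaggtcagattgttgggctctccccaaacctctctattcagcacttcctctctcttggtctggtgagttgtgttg
S100a6, chr3:90612644-90612943, plus strand: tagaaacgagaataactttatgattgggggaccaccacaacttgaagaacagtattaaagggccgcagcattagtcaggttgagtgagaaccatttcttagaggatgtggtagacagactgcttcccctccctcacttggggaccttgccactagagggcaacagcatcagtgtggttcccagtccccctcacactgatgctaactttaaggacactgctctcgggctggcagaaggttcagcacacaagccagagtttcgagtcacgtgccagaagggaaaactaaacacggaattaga
S100a8, chr3:90668821-90669120, plus strand: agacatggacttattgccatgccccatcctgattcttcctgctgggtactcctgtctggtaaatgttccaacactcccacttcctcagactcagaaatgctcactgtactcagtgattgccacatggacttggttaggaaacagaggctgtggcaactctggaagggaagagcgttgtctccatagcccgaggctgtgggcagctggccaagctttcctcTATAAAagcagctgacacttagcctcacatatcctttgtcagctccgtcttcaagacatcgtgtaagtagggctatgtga
S100a9, chr3:90695672-90695971, minus strand: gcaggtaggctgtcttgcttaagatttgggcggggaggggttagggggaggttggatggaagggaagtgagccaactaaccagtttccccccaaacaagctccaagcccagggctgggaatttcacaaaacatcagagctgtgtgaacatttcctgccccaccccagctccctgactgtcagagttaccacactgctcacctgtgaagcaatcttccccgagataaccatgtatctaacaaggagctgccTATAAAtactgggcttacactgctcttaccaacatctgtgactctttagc
The S100a4 and S100a8 windows held TATAAA on the strand of the gene at positions -31 and -30 from the annotated start, and that of S100a9 held it at the start itself. Of 32851 promoter windows, 13.6% held TATAAA on either strand and 8.32% on the strand of the gene. In 1.99% of the windows it lay on that strand 20 to 40 bases before the start. The S100a6 window held none. It held CCAAT on the opposite strand at position -228, and 37.4% of all windows held CCAAT on either strand. Matches to the AP-1 letters TGANTCA were 2 in the S100a11 window and 1 in an S100a16 window, against 7.81% of all windows with any match. The start sites of S100a1 and S100a13 face away from each other and their windows overlap. These matches describe the sequence and not the binding of a factor.

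The first question was which S100 genes differed between the Vcam1 KO clones and Vcam1 ctrl. With both clones as KO against ctrl (edgeR quasi-likelihood test, adjusted p under 0.05), S100a4 rose and S100a1, S100a6, S100a8 and S100a14 fell. The other 5 of the 10 were S100a10, S100a11, S100a13 and S100a16, which did not pass the test, and S100a9, which did not pass the filter on low counts and was not tested. Of all 17672 genes tested, 21.7% rose and 21.2% fell, so that a call in either direction was common. Against ctrl, KO1 had 1 member higher and 5 lower, with 29.9% of all genes higher and 30.0% lower. KO2 had 1 higher and 4 lower, with 25.3% of all genes higher and 26.1% lower. In KO1 against KO2, no member was higher and 2 were lower, S100a8 and S100a10, with 20.2% of all genes higher and 18.5% lower. The median log2 fold change of the 9 tested members was -0.64 in KO against ctrl, beside 0.07 over all genes tested, and this is the value of S100a10, on which the clones differed. It was -0.89 in KO1 and -0.13 in KO2, beside 0.02 and 0.00 over all genes. Among the members, S100a8 and S100a14 passed the filter through the ctrl libraries, where they were high, and their place among the calls is no support in itself. Fewer cells that use a gene and less RNA per cell cannot be told apart in these bulk libraries.

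**Figure D1:**
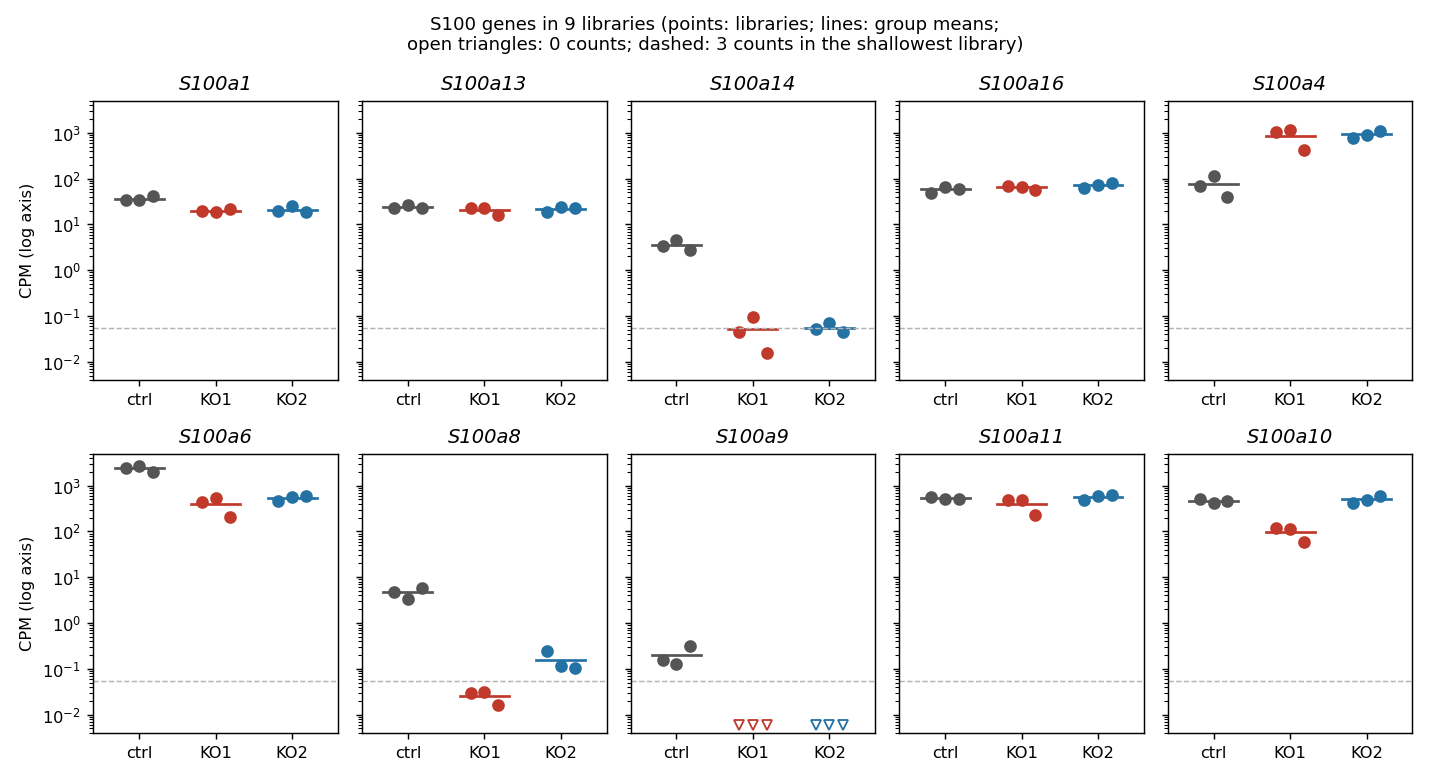
CPM of each S100 gene (log axis) in the 9 libraries, in their order along the chromosome. Points are libraries, lines are group means, open triangles stand for 0 counts and the dashed line for 3 counts in the shallowest library (0.0554 CPM). S100a4 lies at 39.7 to 116 CPM in ctrl and at 422 to 1128 CPM in the KO clones, and S100a10 is low in KO1 only, at 57.5 to 118 CPM.

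S100a4 was the one member that rose. In the ctrl libraries it was at 68.1, 116 and 39.7 CPM. In KO1 it was at 1046, 1128 and 422 CPM and in KO2 at 770, 914 and 1078 CPM. Every KO library was above every ctrl library, and KO1 replicate 3 was the lowest of the 6. The mean was 893 ± 265 CPM (SD, n = 6) in KO and 74.5 ± 38.3 CPM (SD, n = 3) in ctrl, a log2 fold change of 3.58 (SE 0.45, edgeR adjusted p = 0.00021). Each clone gave a similar value, 3.54 (SE 0.47) for KO1 and 3.63 (SE 0.47) for KO2. The clones were not separated by the test, with a log2 difference of -0.09 and a 95% interval from -1.04 to 0.86.

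S100a6, the calcyclin gene near S100a4, was the most abundant S100 mRNA of the ctrl cells and fell. It was at 2447, 2681 and 1972 CPM in ctrl, at 439, 528 and 204 CPM in KO1 and at 455, 565 and 586 CPM in KO2. All KO libraries were below the ctrl range. The log2 fold change in KO against ctrl was -2.35 (SE 0.28, adjusted p = 0.00017), with -2.60 in KO1 and -2.14 in KO2. Between the clones the log2 difference was -0.45 (95% interval -1.13 to 0.22), which did not pass the test.

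Because S100a4 and S100a6 moved in opposite directions, their balance turned over. Per kilobase of transcript, the ratio of the S100a4 level to the S100a6 level was 0.0446 ± 0.0171 in ctrl, 3.22 ± 0.24 in KO1 and 2.52 ± 0.166 in KO2 (SD, n = 3 each). This ratio was taken within each library and does not depend on library scaling. KO1 replicate 3, in which both genes were low, had a ratio of 3.04, close to the 3.50 and 3.14 of the other KO1 libraries. The ratio was chosen after its values were seen and was not tested.

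The levels per kilobase of transcript gave an order of the genes in each group. In ctrl the order was S100a6 at 3238 ± 494 CPM per kb, S100a11 at 1050 ± 60.6, S100a10 at 679 ± 64.8 and S100a4 at 150 ± 76.9 CPM per kb (SD, n = 3). Below these came S100a1, S100a16, S100a13, S100a8, S100a14 and S100a9, and the ranges of S100a1 and S100a16 overlapped. In KO1 S100a4 came first at 1738 ± 776 CPM per kb, followed by S100a11 and S100a6. There S100a4 overlapped S100a11, and S100a11 overlapped S100a6. In KO2 S100a4 came first at 1848 ± 309 CPM per kb, above S100a11 at 1113 ± 152 CPM per kb. S100a6 and S100a10 then overlapped at 732 and 730 CPM per kb. In both clones S100a1 and S100a13 also overlapped, and in KO1 S100a8 and S100a14 overlapped close to 0.

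The summed level of the 10 genes was 5270 ± 553 CPM per kb in ctrl, 3312 ± 1343 in KO1 and 4549 ± 683 in KO2 (SD, n = 3). The KO1 value was drawn down by KO1 replicate 3, at 1767 CPM per kb against 3970 and 4200 in its companions. As a share of that sum, S100a6 went from 58.1% to 64.5% in the ctrl libraries to 15.1% to 17.2% in the KO libraries. S100a4 went from 1.72% to 4.08% in ctrl to 47.9% to 53.9% in KO1 and 39.8% to 41.6% in KO2. The share of S100a11 stayed between 17.8% and 25.6% in all 9 libraries. S100a10 held 3.92% to 4.75% of the sum in KO1 and 10.8% to 16.6% in the other groups. KO1 replicate 3 had shares like those of the other KO1 libraries for these 4 genes, although its sum was lower.

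**Figure D2:**
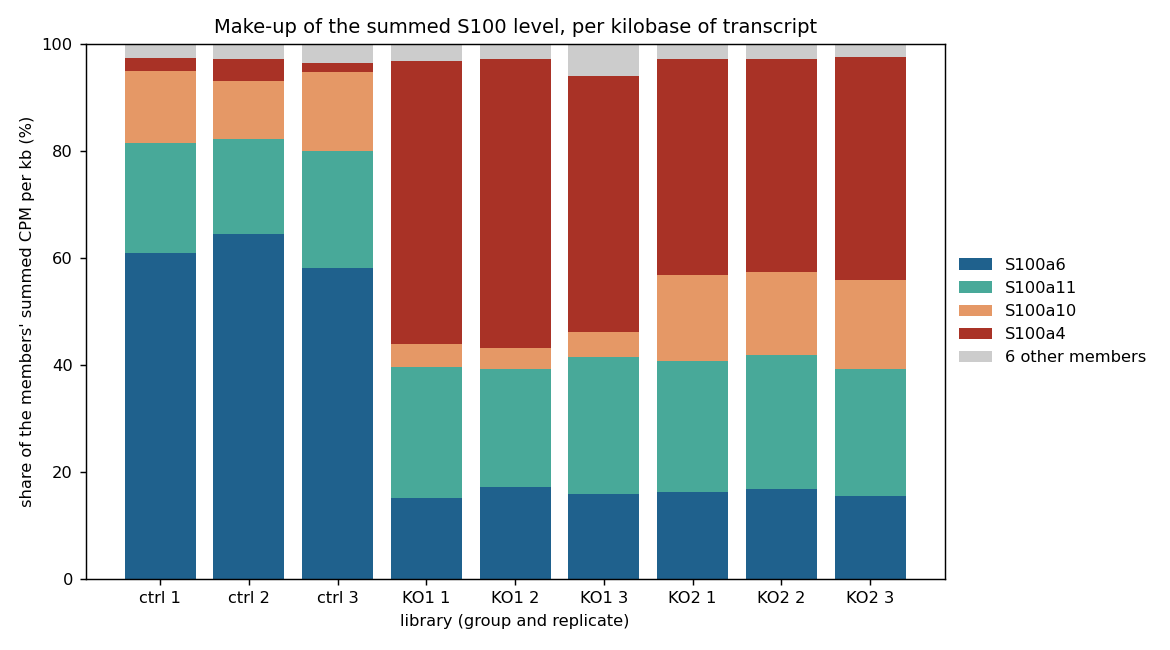
Share of each gene (percent) in the summed CPM per kb of the 10 S100 genes, one bar per library. S100a6 takes 58.1% to 64.5% in the ctrl libraries and 15.1% to 17.2% in the KO libraries, and S100a4 takes 1.72% to 4.08% and 39.8% to 53.9%.

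S100a4 and S100a6 moved beside large shifts in cell type markers. The summed level of 9 fibroblast markers was 413 to 802 CPM in ctrl, 9336 to 10688 CPM in KO1 and 5861 to 7212 CPM in KO2. Of the 7 fibroblast markers tested, 5 rose in KO against ctrl, beside 21.7% higher over all genes. None of the 9 was at 0 in all libraries, but Lum and Thy1, which were not tested, were low. Thy1 was at 0.0299 to 0.287 CPM over all libraries. Lum had 0 counts in ctrl and at most 2.35 CPM in KO. The collagen gene Col1a1 was at 107, 136 and 55.0 CPM in ctrl and at 4199 to 9204 CPM in KO, and made up most of the sum in the KO libraries. Dcn, another of the markers, went from 58.3 to 105 CPM in ctrl to 2.16 to 8.35 CPM in KO1, where it fell (log2 fold change -4.11, adjusted p = 0.00022). The summed level of the 10 biliary and epithelial markers was 13569 to 15250 CPM in ctrl, 10618 to 11078 CPM in KO1 and 7635 to 11082 CPM in KO2. Spp1 made up most of the sum in KO cells, at 7459 to 10797 CPM, while Cdh1 fell from 424 to 709 CPM in ctrl to 0.237 to 1.61 CPM in KO. The part of these shifts in the S100 results was not tested.

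S100a14, an S100 gene known from epithelia, was low in ctrl and nearly absent in KO. It was at 3.32, 4.54 and 2.82 CPM in ctrl. In KO1 it had 3, 9 and 1 counts (0.0449, 0.0939 and 0.016 CPM) and in KO2 3, 5 and 3 counts (0.0514, 0.0707 and 0.0444 CPM). The groups did not overlap, and most of the KO values were at or near the level of 3 counts. The log2 fold change was -5.98 in KO against ctrl (SE 0.43, adjusted p = 7.5e-06). KO1 and KO2 gave -5.96 and -5.95, and their difference of -0.01 had a wide 95% interval, from -1.45 to 1.43. Here too the fall ran beside those of Krt19 and Cdh1 given above.

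S100a1, best known from heart and skeletal muscle, where it acts on calcium handling proteins, showed a smaller fall. It was at 34.4, 34.3 and 41.3 CPM in ctrl, at 19.7, 18.5 and 21.3 CPM in KO1 and at 19.8, 24.8 and 18.7 CPM in KO2. The groups did not overlap, and KO1 replicate 3 was not low for this gene. The log2 fold change was -0.84 in KO against ctrl (SE 0.13, adjusted p = 0.00077), with -0.89 in KO1 and -0.80 in KO2. Its divergent neighbor S100a13, which starts close by on the other strand, did not pass the test in any comparison. S100a13 ranged from 22.3 to 27.1 CPM in ctrl and from 16.3 to 24.1 CPM in KO, and its log2 difference in KO against ctrl was -0.18 (95% interval -0.53 to 0.17). The libraries were stranded and counted by strand, so reads of this pair could be told apart.

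S100a8 and S100a9 encode the subunits of calprotectin, a metal-binding heterodimer of neutrophils and inflamed epithelia. S100a8 was at 4.76, 3.41 and 5.86 CPM in ctrl. It had 2, 3 and 1 counts in KO1 (0.0299, 0.0313 and 0.016 CPM) and 14, 8 and 7 counts in KO2 (0.24, 0.113 and 0.104 CPM). The 3 groups did not overlap, with KO1 lowest. Since the KO1 libraries held 6 counts in all, the ratio of ctrl to KO1 is given by counting, as 181 with a 95% exact Clopper-Pearson interval from 82.8 to 493, which covers counting error only. In KO2 the log2 fold change was -4.95 (SE 0.40, adjusted p = 9e-06). The fitted difference between KO1 and KO2 was -2.43 (SE 0.53, adjusted p = 0.0062), and it rests on these few counts.

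S100a9 had 20, 7 and 25 counts in ctrl (0.159, 0.129 and 0.316 CPM) and 0 counts in all 6 KO libraries. Against 3 counts in each library, its level was at least 4.61-fold lower in KO than in ctrl. Without the filter it was called lower, with an adjusted p of 0.0022. In ctrl, S100a9 was thus far below its partner subunit, at 0.388 ± 0.193 CPM per kb against 9.62 ± 2.52 CPM per kb for S100a8 (SD, n = 3).

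Markers of blood cells, the usual source of calprotectin, were low in these cultures. The summed level of 10 haematopoietic markers was 8.60 to 21.6 CPM in ctrl, 9.10 to 12.0 CPM in KO1 and 7.06 to 9.72 CPM in KO2. Csf3r and Cd3e were among those at or under 3 counts in every library. The pan-leukocyte gene Ptprc was at 0.382, 0.406 and 0.443 CPM in ctrl and at 0.015 to 0.0685 CPM in KO, and the neutrophil gene Ly6g was at 0.677, 0.941 and 0.797 CPM in ctrl and at most 0.0444 CPM in KO. Over all genes tested, 21.2% fell and 21.7% rose in KO against ctrl. Of the 10 markers 5 were tested, of which 3 fell (Ptprc, Ly6g and Csf1r) and 1 rose. Ptprc and Ly6g were near 0 in KO and passed the filter through ctrl, so that their calls are no support in themselves. The one that rose was Lyz2, a lysozyme gene of myeloid cells, from 0.0759 to 0.148 CPM in ctrl to 3.66 to 4.59 CPM in KO1, with 0.074 to 0.325 CPM in KO2. Cd68 did not pass the test (log2 difference 0.25, adjusted p = 0.55). The part of these markers in the S100a8 and S100a9 levels was not tested.

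S100a10 had the largest difference between the clones among the members with a mean of at least 5 CPM. Its product binds no calcium and joins annexin A2 in a complex at the plasma membrane that also binds plasminogen. S100a10 was at 508, 420 and 468 CPM in ctrl, at 118, 113 and 57.5 CPM in KO1 and at 420, 489 and 590 CPM in KO2. KO1 was below all other libraries, while KO2 and ctrl overlapped. The log2 fold change was -2.28 in KO1 (SE 0.26, adjusted p = 6.4e-05) and 0.10 in KO2 (95% interval -0.46 to 0.67, adjusted p = 0.76). The test of KO1 against KO2 gave -2.38 (SE 0.26, adjusted p = 0.00019). Without KO1 replicate 3, the lowest library, that difference was -2.12 (adjusted p = 4.6e-05). Taken as 1 group of 6, the KO libraries did not differ from ctrl by the test (log2 -0.64, SE 0.66, adjusted p = 0.46), while the average of the contrasts of both clones, in a fit with 3 groups, was called at -1.09 (adjusted p = 0.0016).

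S100a11, the neighbor of S100a10 on the chromosome and a partner of annexin A1, did not pass the test in any comparison. It was at 572, 517 and 521 CPM in ctrl, at 497, 475 and 231 CPM in KO1 and at 483, 588 and 636 CPM in KO2. All KO1 values were below those of ctrl, most of all KO1 replicate 3, and the log2 difference was -0.42 (95% interval -0.99 to 0.15, adjusted p = 0.18). Without that library it was -0.14 (adjusted p = 0.41). Within each library, the ratio of the S100a10 level to that of S100a11 per kilobase was 0.605 to 0.67 in ctrl, 0.177 to 0.186 in KO1 and 0.621 to 0.692 in KO2. KO1 replicate 3 was in the range of its group by this ratio, at 0.186. This ratio was also chosen after its values were seen and was not tested.

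**Figure D3:**
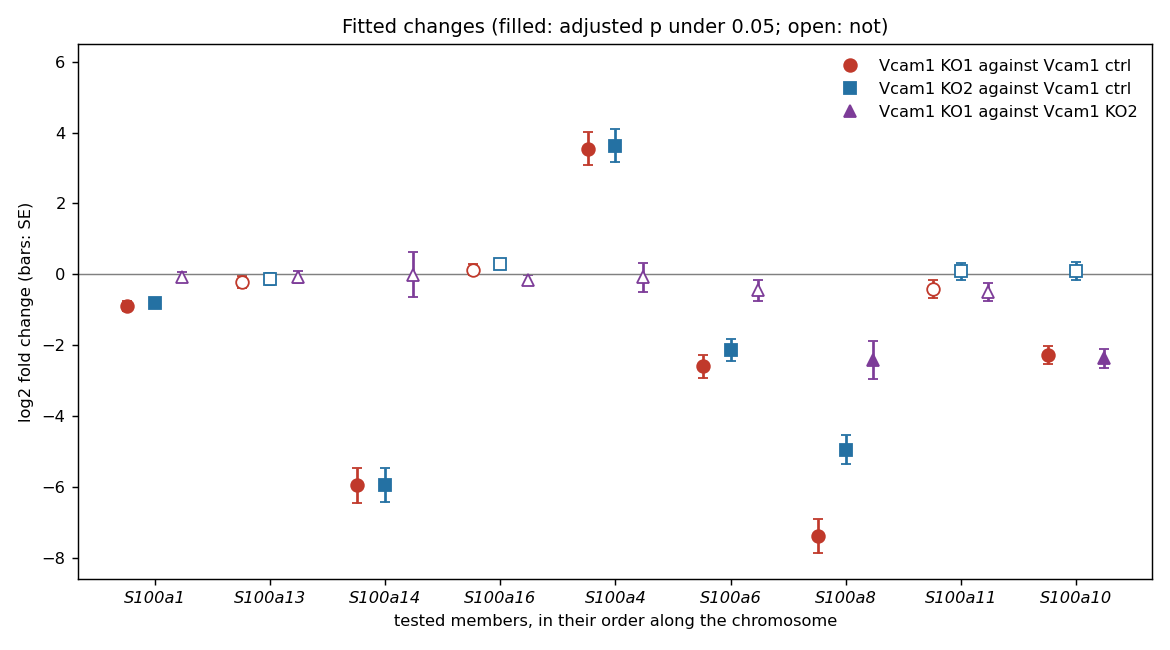
Fitted log2 fold changes of the 9 tested S100 genes, with SE bars, for each clone against Vcam1 ctrl and for KO1 against KO2, in chromosome order. Filled symbols passed an adjusted p of 0.05. The clones lie close together for S100a4 (3.54 and 3.63) and apart for S100a10 (-2.28 and 0.10).

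The annexins and Ahnak, a giant scaffold protein bound by the complex of S100a10 and annexin A2, formed a list of 5 genes. In KO against ctrl 1 of the 5 rose and 2 fell, beside 21.7% higher and 21.2% lower over all genes. The median log2 fold change was -0.40, beside 0.07 over all genes. Anxa2 was at 2444, 3492 and 2775 CPM in ctrl, at 900, 909 and 420 CPM in KO1 and at 947, 1058 and 1449 CPM in KO2. It fell in both clones, by 1.97 on the log2 scale in KO1 (adjusted p = 0.00044) and by 1.33 in KO2 (adjusted p = 0.0047). Anxa2 was therefore low in KO2, where S100a10 was at the ctrl level, and the log2 difference between the clones, -0.63, did not pass the test (adjusted p = 0.12). Anxa6, a partner of several S100 proteins, rose from 142 to 156 CPM in ctrl to 557 to 890 CPM in KO (log2 fold change 2.27, SE 0.22, adjusted p = 4.5e-05). Ahnak fell in KO2, at -0.74 (adjusted p = 0.01), and was at -0.13 in KO1 (adjusted p = 0.58).

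Plasminogen activation, in which the S100a10 complex serves as a docking site, was followed in 6 genes, of which 5 were tested. None rose in KO against ctrl and 1 fell, beside 21.7% higher and 21.2% lower over all genes. The gene that fell was Plaur, the urokinase receptor gene. In KO1 against KO2 the count was 2 higher and 3 lower, beside 20.2% higher and 18.5% lower over all genes. The median there was -1.86, beside 0.04 over all genes. Plaur was at 234, 245 and 224 CPM in ctrl, at 10.9, 18.9 and 4.26 CPM in KO1 and at 73.7, 78.7 and 86.9 CPM in KO2. It fell in both clones and was lower in KO1 than in KO2 by a log2 difference of -2.81 (SE 0.42, adjusted p = 0.00094). Its order of groups, with KO1 lowest, was also that of S100a8.

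Intracellular targets formed a list of 11 genes, 9 of them tested. Of these, 2 rose, 2 fell and 5 did not pass the test in KO against ctrl, with a median of 0.58. Both shares, 22.2%, were near those over all genes, 21.7% higher and 21.2% lower. Myh9, the non-muscle myosin heavy chain whose filaments S100a4 takes apart, rose from 1539, 1257 and 1435 CPM in ctrl to 2263 to 3239 CPM in KO (log2 fold change 0.87, SE 0.17, adjusted p = 0.0027). It rose in both clones, by 0.98 and 0.75 on the log2 scale. Mdm2, a ubiquitin ligase and a binding partner of some S100 proteins, fell by 0.68 on the log2 scale (adjusted p = 0.013). Cacybp, the calcyclin-binding protein gene named for its binding of S100a6, rose in KO2 (log2 fold change 0.94, adjusted p = 0.0038) and was at 0.11 in KO1 (adjusted p = 0.66). The clones differed for Cacybp by a log2 difference of -0.83 (adjusted p = 0.011).

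S100a13 takes part in the release of Fgf1, a growth factor without a signal peptide, together with synaptotagmin. Of the 3 genes on this list 2 were tested, and Fgf1 fell. It was at 20.8, 20.2 and 32.3 CPM in ctrl, at 1.12, 1.01 and 5.33 CPM in KO1 and at 0.874, 0.721 and 0.325 CPM in KO2 (log2 fold change -3.96 in KO against ctrl, SE 0.74, adjusted p = 0.0022). S100a13 itself stayed within the ranges given above. S100a16, a broadly used member, did not pass the test either. It was at 49.4, 66.2 and 60.7 CPM in ctrl, at 70.7, 65.4 and 56.8 CPM in KO1 and at 61.7, 72.0 and 82.2 CPM in KO2, with a log2 difference of 0.21 in KO against ctrl (95% interval -0.11 to 0.54).

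Receptors and surface partners that take up the signal of released S100 proteins were all tested, 9 of 9. In KO against ctrl 2 rose, 2 fell and 5 did not pass the test, with a median of 0.54. Both shares, 22.2%, were near those over all genes, 21.7% higher and 21.2% lower. Ager, the gene of RAGE, was at 1.44 to 3.57 CPM in ctrl and 2.32 to 8.97 CPM in KO, with overlapping groups and a log2 difference of 0.71 (adjusted p = 0.25). Tlr4, the receptor of calprotectin in myeloid cells, was at 15.4 to 22.9 CPM in ctrl and 13.2 to 21.8 CPM in KO (log2 difference -0.02, adjusted p = 0.94). Its co-receptor Cd14 fell, from 100, 132 and 157 CPM in ctrl to 19.5 to 28.2 CPM in KO1 and 39.0 to 42.8 CPM in KO2 (log2 fold change -2.01, SE 0.28, adjusted p = 0.00042). Alcam, an adhesion molecule that binds S100 proteins, fell from 154 to 234 CPM in ctrl to 1.12 to 1.66 CPM in KO1 and 7.99 to 10.1 CPM in KO2. The 2 that rose in KO against ctrl were Ly96 (log2 fold change 1.08, adjusted p = 0.014) and Nptn (0.54, adjusted p = 0.002). Ly96 and Nptn were named after their values were seen. Both Cd14 and Alcam were lower in KO1 than in KO2, with log2 differences of -0.87 (adjusted p = 0.0057) and -2.68 (adjusted p = 2.1e-05). The other 2 called clone differences of this list, named after their values were seen, were higher in KO1, Cd36 at 11.35 (adjusted p = 4.9e-06) and Mcam at 3.60 (adjusted p = 0.00012).

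**Figure D4:**
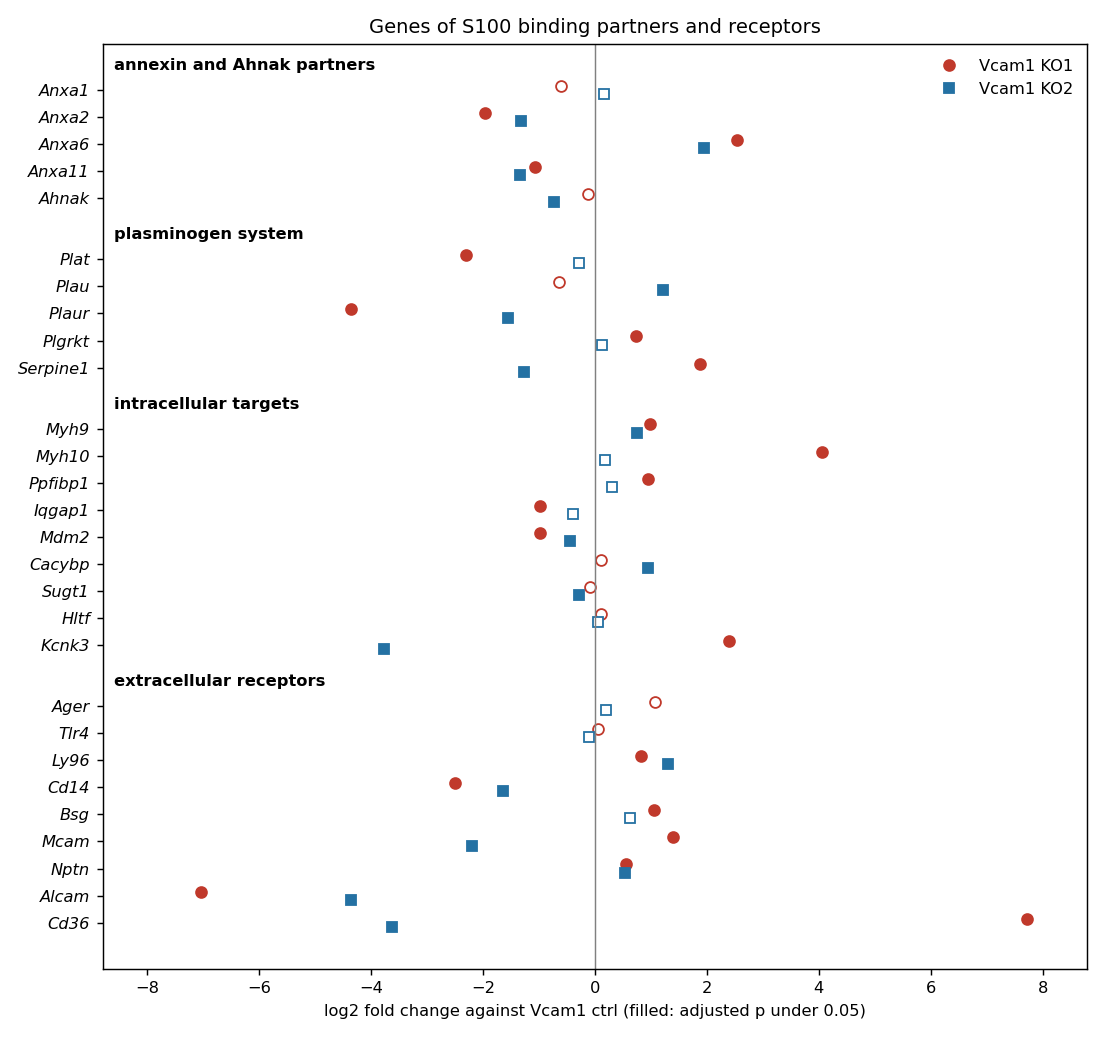
Log2 fold changes of the tested genes of 4 lists of S100 partners and receptors in KO1 (circles) and KO2 (squares) against Vcam1 ctrl, filled where the adjusted p was under 0.05. Anxa2 lies at -1.97 and -1.33, Plaur at -4.36 and -1.55 and Alcam at -7.04 and -4.36.

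The table held 8 further S100 genes, for 18 in all, and 5 of the 8 were tested. None rose and 3 fell in KO against ctrl, S100a3, S100g and S100z, beside 21.7% higher and 21.2% lower over all genes. S100z passed the filter only through ctrl, so that its call was fixed by the filter. S100a3, which overlaps S100a2 on the same strand, was at 5.94, 7.05 and 3.81 CPM in ctrl, 1.14, 1.30 and 0.926 CPM in KO1 and 2.38, 2.59 and 2.75 CPM in KO2 (log2 fold change -1.60, SE 0.40, adjusted p = 0.01), and reads of the overlapping pair may be uncertain. S100g, the calbindin gene of calcium-absorbing epithelia, fell from 4.24 to 9.31 CPM in ctrl to 0.0835 to 0.12 CPM in KO1 and 0.562 to 0.754 CPM in KO2. S100z had 0 counts in all 6 KO libraries and 56, 16 and 44 counts in ctrl, at least 9.90-fold lower against 3 counts a library. S100b, a marker of glia and Schwann cells, was at 1.54, 0.918 and 12.7 CPM in KO1, so that 1 library, KO1 replicate 3, carried its mean. S100a7a was at 0.207 to 0.511 CPM over all libraries and did not pass the test. S100a2, S100a5 and S100a7l2 had at most 18 counts in any library and were not tested.

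The S100 genes frame the epidermal differentiation complex, which holds genes of the cornified envelope of skin. Between S100a1 and S100a10, a stretch of 3054 kb, 105 other genes were in the table and 16 were tested. In KO against ctrl 8 fell and none rose (21.2% of all genes fell), with a median log2 fold change of -2.33. In KO1 12 fell and none rose (30.0% of all genes fell), and in KO2 10 fell and 2 rose (26.1% and 25.3% of all genes). Of the 16 genes 1, Sprr2h, had 0 counts in all KO libraries and passed the filter only through ctrl. By clone, 3 had 0 counts in all KO1 libraries and 2 in all KO2 libraries. These could only be called lower there, and their calls are no support in themselves. Other genes of the 16 with large falls may also have passed the filter mainly through ctrl. How many did was not counted, so the numbers that fell are no support in themselves. The 2 that rose in KO2, named after their values were seen, were Prr9 (3.30) and Sprr1b (2.32), and both fell in KO1 (-4.83 and -6.31). In KO1 against KO2 7 were lower and none was higher, beside 18.5% lower over all genes. Sprr1a, a cornified envelope precursor, was at 393, 629 and 630 CPM in ctrl, at 18.4, 55.0 and 7.95 CPM in KO1 and at 176, 188 and 129 CPM in KO2 (log2 fold change -2.52, SE 0.81, adjusted p = 0.031). The small proline-rich genes are near copies of each other, and the split of reads among them is uncertain. Of 7 fused-type genes, in which an S100 domain precedes long repeats, 1 was tested, Tchh, and it fell (log2 fold change -5.47). S100a4 was thus the only one of the tested S100 genes and the genes between them that rose in KO against ctrl.

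Other EF-hand genes outside the S100 family formed a list of 14. Of these, 6 rose (42.9%), 2 fell (14.3%) and 6 did not pass the test in KO against ctrl, beside 21.7% higher and 21.2% lower over all genes, with a median log2 fold change of 0.40. Rcn1, a calcium-binding protein of the endoplasmic reticulum, rose from 46.0 to 60.0 CPM in ctrl to 113 to 175 CPM in KO (log2 fold change 1.58, adjusted p = 8.9e-05). Its relative Rcn3 fell from 25.9 to 47.8 CPM in ctrl to 0.255 to 1.03 CPM in KO (log2 fold change -5.84, adjusted p = 1.1e-05). The difference between this list and the S100 genes was not tested.

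Across the 9 libraries, which share 3 conditions, the log2 levels of S100a6 and S100a14 ran most closely together among the tested members (Pearson r = 0.97), and S100a4 and S100a1 ran most opposite (r = -0.95). S100a10 was most like S100a11 (r = 0.81) and S100a13 was also most like S100a11 (r = 0.78). Among 10876 genes with a mean of at least 5 CPM, those most like S100a4 were Nupl2, Anapc4 and Ank2, each at r = 0.994, and those most like S100a10 were Neurl1a (0.994), Rpl36a (0.993) and Mbd2 (0.991). Neurl1a was at 35.0 to 52.3 CPM in ctrl, 0.67 to 3.02 CPM in KO1 and 54.5 to 81.7 CPM in KO2.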

How the data were processed

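RNA of 9 PPTR libraries (stranded mRNA kit, paired-end reads) was sequenced by the authors, who estimated counts with kallisto 0.46.1 against GENCODE vM24 transcripts (mm10, per the submitters' processing notes and the study's methods), with strand and sequence bias settings. The deposited table holds these estimated counts per gene symbol as whole numbers. How transcripts were summed to symbols is not given in the sources used here, and reads shared by near copies are split by estimate.

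From the deposited counts, genes were filtered with filterByExpr, scaled with TMM factors and tested with the quasi-likelihood test of edgeR 4.0.16 (R 4.3.3), with Benjamini-Hochberg adjustment over all 17672 genes tested and a threshold of 0.05. KO against ctrl was fitted with the 6 KO libraries as 1 group, and KO1 against ctrl, KO2 against ctrl and KO1 against KO2 with 3 groups. Alternatives were limma-voom (limma 3.58.1), which the study used, and DESeq2 1.42.0, together with upper-quartile scaling, other filters, other fits and the removal of each library in turn. Levels are CPM on TMM-scaled totals, log2 levels used a prior count of 2, and levels were compared between genes only per kilobase of the principal transcript (GENCODE vM21). Totals ran from 53415907 to 125223073 counts. No column was left out. The fits were tested on simulated data, in which 200 genes were changed 2-fold in both clones. Of these, 95 were called in KO against ctrl, 59 in KO1 against ctrl and 67 in KO2 against ctrl. A change of this size was thus often missed there, and no difference between the clones was simulated.

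The S100 members, partner lists and marker lists were chosen with earlier results of these data known. Genes named outside the members were 6 fixed by name, for each list the called genes with the largest change and a mean of at least 5 CPM, the same for genes between the members, and the 3 genes most like S100a4 and S100a10, as the members with the largest change and the largest clone difference among those with a mean of at least 5 CPM. Single marker genes given as values, Tchh, Prr9, Sprr1b, Sprr2h, Cd36, Mcam, Ly96 and Nptn fall outside this rule. They were chosen after their values were seen. Promoter sequences are from RefSeq (GRCm38.p6). Some alleles and marker genes are not reported here.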

Additional observations from a re-analysis of the deposited data

Results flagged for a closer look

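S100a8 and S100a10 differed between the clones by the test of KO1 against KO2, with log2 differences of -2.43 and -2.38, as did the further family genes S100a3 (-1.19), S100g (-2.70) and S100b (4.65). S100a8, S100a10, S100a3 and S100g were lower in KO1, and S100b was higher there, with 12.7 CPM in KO1 replicate 3 against 1.54 and 0.918 CPM in the other KO1 libraries. In this comparison 20.2% of all genes tested were higher and 18.5% lower.

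Among the 6 KO libraries, KO1 replicate 3 lay far below the rest for S100a6, where its gap to the next library was 0.728 of the whole range of log2 levels, and for S100a11, where it was 0.712 (above Dixon's 95% limit for 6 values). Chance marks about 1 in 20 such groups, 14 genes were looked at, and the 6 libraries are of 2 clones. The same library had low cell cycle genes, with the summed level of 10 proliferation markers at 233 CPM. The part of these in the S100 levels was not tested.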

How the results depend on the processing

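Over all alternatives, the log2 fold changes of the tested members were recomputed 538 times. Of these, 526 kept their direction and their side of the threshold, 11 changed sign and 1, S100a10 in KO against ctrl as the average of the clone contrasts, passed the threshold. None of the calls of S100a1, S100a4, S100a6, S100a8, S100a10 and S100a14 given in the report was lost where the gene was tested. The fit of KO1 against KO2 on 6 libraries called 1 member lower in place of 2, since S100a8 did not pass the filter there. With ctrl replicate 2 or any 1 of the KO libraries left out, KO1 replicate 3 among them, S100a9 passed the filter. It was called lower in each clone, which then had 6 (KO1) and 5 (KO2) members lower. S100a9 had 0 counts in every KO library and passed only through ctrl, so that this call was fixed by the filter. All the members' sign changes were of differences that did not pass the test.

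With 1 library left out at a time, log2 differences of KO1 against KO2 ran from -0.20 to 0.04 for S100a1, from -0.33 to 0.24 for S100a4, from -0.24 to 0.05 for S100a13, from -0.82 to 0.36 for S100a14, from -0.02 to 0.36 for Tlr4 and from -0.27 to 0.03 for Rcn1. For KO2 against ctrl they ran from -0.05 to 0.21 for S100a10, from -0.02 to 0.18 for S100a11, from -0.10 to 0.51 for Ager and from -0.24 to 0.07 for Tlr4. For KO1 against ctrl they ran from -0.22 to 0.33 for S100a7a, from -0.03 to 0.31 for Cacybp and from -0.10 to 0.26 for Tlr4. For KO against ctrl they ran from -0.91 to 2.11 for S100b and from -0.14 to 0.13 for Tlr4. S100a14 in KO1 against KO2 was at 0.05 with upper-quartile scaling and at 0.03 with the filter of 1 CPM. S100a7a in KO1 against ctrl was at -0.07 with limma-voom, -0.02 with DESeq2 and -0.04 without a filter. S100b in KO against ctrl was at -0.33 with limma-voom and at -0.17 as the average of the clone contrasts. With limma-voom, Tlr4 in KO against ctrl was at 0.02, and S100z in KO1 against KO2, with 0 counts in both, was at -0.17. The causes were not tested. Levels of S100a8, S100a9 and S100a14 in KO cells lie near 3 counts, which limits any difference between the clones there.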
